A study of Mus musculus with 12 samples.

Results

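The genes described here encode the subunits of the mitochondrial respiratory chain and of ATP synthase. They were chosen by symbol, as the rows of the normalised table of the series named Ndufa to Ndufv with a number, Sdha to Sdhd, Uqcr, Cox4 to Cox8, Atp5, or mt-Nd, mt-Co, mt-Cytb and mt-Atp, and 6 pseudogenes with the suffix -ps were left out. This gave 97 genes of 34677 symbols, 84 of them encoded in the nucleus and 13 on mitochondrial DNA. The nuclear group held 35 genes of complex I, 4 of complex II, 8 of complex III, 17 of complex IV and 15 of complex V. The other nuclear members were Ndufa4 and Ndufa4l2, the supercomplex factor Cox7a2l, and Atp5s and Atp5sl, which carry an ATP synthase name but are no subunits of the enzyme. The mitochondrial group held 7 genes of complex I, 1 of complex III, 3 of complex IV and 2 of complex V.

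The study profiled the RNA of sorted thymic epithelial cells (TEC), the stromal cells that present self antigens to developing T cells, in MHC class II deficiency. Cortical TEC (cTEC, EpCAM+ CD45- Ly51+ UEA1-) and medullary TEC (mTEC, EpCAM+ CD45- Ly51- UEA1+) came from wild-type (WT) mice and from Aβ0/0 mice, which carry a disrupted H2-Ab1 gene in every cell and so lack surface MHC class II, with no further treatment of either genotype. Each of the 4 groups had 3 libraries, each from a pool of 5 to 10 mice aged 4 to 6 weeks, so that p-values measure the spread between pools. Fewer cTEC and fewer mTEC were recovered from Aβ0/0 than from WT thymi per the cell yields of the study, and the libraries were made from poly(A) RNA with a kit that amplifies full-length cDNA and keeps no strand.

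Complexes I to IV pass electrons from NADH and succinate to oxygen and pump protons across the inner mitochondrial membrane, and complex V uses the returning protons to make ATP. Complexes I, III, IV and V are built from subunits of both genomes, while complex II is entirely nuclear. The mitochondrial genes are transcribed by their own polymerase as long polycistronic RNAs that are cut and polyadenylated, whereas each nuclear gene has its own promoter, so the transcripts of both genomes can differ in level while their proteins sit in one complex.

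The libraries held 21710319 to 36139815 estimated counts. The labels were first checked against H2-Ab1, at 6504, 7005 and 10033 CPM (counts per 1000000, on TMM-scaled library sizes) in WT cTEC, 2157, 3715 and 2744 in Aβ0/0 cTEC, 9019, 11190 and 10484 in WT mTEC and 1899, 3851 and 2924 in Aβ0/0 mTEC. It was lower in every Aβ0/0 library than in any WT library, with reads remaining. On unscaled totals, the 8 cTEC markers summed to 5914 to 15685 CPM in cTEC and 483 to 914 in mTEC, and the 10 mTEC markers to 2412 to 3953 CPM in cTEC and 13934 to 25355 in mTEC. Markers of other cells moved with the subset: the 12 thymocyte genes summed to 350 to 1100 CPM in cTEC and 68.4 to 224 in mTEC, and the 5 fibroblast genes, mostly Dcn, to 2267 to 2874 CPM in cTEC and 187 to 394 in mTEC. The share of the RNA of these cells in the results below was not tested. One library stood apart among the members, WT cTEC replicate 3, and the values without it are given beside the subset results, the cTEC genotype medians and the difference of the genotype effects.

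The 13 mitochondrial genes lie close together on a circular genome, and 4 neighbouring pairs share bases, so that reads there cannot be assigned to one gene. The shared bases of 3 pairs are shown because the counts of these pairs are partly common to both members. They are on the plus strand of chrM in GRCm38, each with 10 flanking bases in lower case and the shared stretch in capitals.
mt-Atp8 and mt-Atp6, chrM:7917-7969: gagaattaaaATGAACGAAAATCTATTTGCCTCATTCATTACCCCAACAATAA
mt-Nd4l and mt-Nd4, chrM:10157-10173: acctactacaATGCTAA
mt-Nd5 and mt-Nd6, chrM:13542-13565: ttatactcaaTTAATCTCGAGTAA
The pair mt-Nd5 and mt-Nd6 is read from opposite strands and shares 14 bases, mt-Atp8 and mt-Atp6 share 43, mt-Nd4l and mt-Nd4 share 7, and mt-Atp6 and mt-Co3 share 1. Per length, as the mean TPM (transcripts per 1000000) of all 12 libraries, the mitochondrial levels ran from 11871 for mt-Co3 and 11644 for mt-Atp6 down to 771 for mt-Nd6 and 611 for mt-Nd5. In the same unit the most abundant nuclear members were Cox6c at 1535, Cox8a at 1450 and Atp5b, the catalytic beta subunit of ATP synthase, at 1215. The highest nuclear level was thus above those of mt-Nd3, mt-Nd2, mt-Nd4l, mt-Nd6 and mt-Nd5 and below those of the other 8 mitochondrial genes.

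Transcripts of the mitochondrial genes took a larger part of the mTEC libraries than of the cTEC libraries relative to those of the nuclear genes, in both genotypes. As a percentage of all counts, the 13 mitochondrial genes together took 1.29, 1.50 and 3.45 in WT cTEC, 1.17, 2.67 and 1.68 in Aβ0/0 cTEC, 3.32, 3.75 and 4.28 in WT mTEC and 3.94, 4.79 and 4.83 in Aβ0/0 mTEC. Only WT cTEC replicate 3 reached the mTEC range. The nuclear members took 1.82% ± 0.601 (SD, n = 3) in WT cTEC, 1.72% ± 0.384 in Aβ0/0 cTEC, 1.81% ± 0.192 in WT mTEC and 1.68% ± 0.277 in Aβ0/0 mTEC, and all 4 groups overlapped. In bulk samples such as these, fewer cells of a type and less RNA per cell cannot be told apart.

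The ratio of the 2 sums within a library does not depend on its depth. The ratio of mitochondrial to nuclear counts was 0.852, 1.06 and 1.38 in WT cTEC, 0.859, 1.26 and 1.00 in Aβ0/0 cTEC, 2.07, 1.89 and 2.32 in WT mTEC and 2.80, 2.45 and 2.87 in Aβ0/0 mTEC. No mTEC library overlapped a cTEC library, and the Aβ0/0 mTEC libraries were all above the WT mTEC libraries. The groups averaged 1.10 ± 0.265, 1.04 ± 0.202, 2.09 ± 0.216 and 2.71 ± 0.227 (SD, n = 3) in the same order. On TPM, where each gene is weighed by its molecules and not by its length, the ratio was 1.80, 1.66 and 2.01 in WT mTEC and 2.38, 1.98 and 2.45 in Aβ0/0 mTEC, so that the genotypes overlapped, and 0.767 to 1.10 in cTEC of both genotypes, still apart from mTEC. As sums over chosen genes these ratios carry no test.

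**Figure D1:**
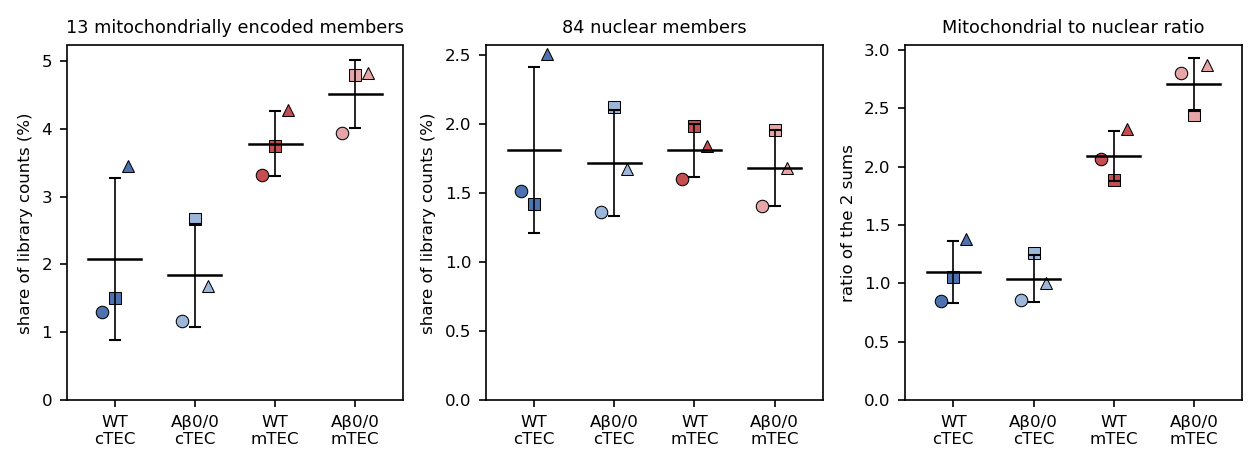
Share of counts taken by the mitochondrial members (left, percent), by the nuclear members (middle, percent) and the ratio of the 2 sums (right) in each of the 12 libraries, by group. Circles, squares and triangles are replicates 1, 2 and 3, the line is the mean and the bar the SD (n = 3); the ratio lies at 0.852 to 1.38 in cTEC and 1.89 to 2.87 in mTEC, while the nuclear shares of the 4 groups overlap.

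The same order held within each complex that has subunits of both genomes. By summed TPM, the mitochondrial to nuclear ratio of complex I was 0.312 to 0.612 in the 6 cTEC libraries, 0.795 to 0.979 in WT mTEC and 1.04 to 1.21 in Aβ0/0 mTEC. In complex III, where cytochrome b is the sole mitochondrial subunit, it was 0.522 to 0.831, 1.10 to 1.36 and 1.49 to 2.06, and in complex V it was 0.981 to 1.49, 2.15 to 2.83 and 2.85 to 3.26. In complexes I, III and V all 3 ranges were separate. In complex IV, cytochrome c oxidase, the ratio was 1.53 to 2.04 in cTEC, 2.73 to 3.30 in WT mTEC and 2.99 to 4.34 in Aβ0/0 mTEC, and the genotypes overlapped. Complex II, which has no mitochondrial subunit, took 0.0821, 0.0905 and 0.0999% of TPM in Aβ0/0 cTEC and 0.0735, 0.0568 and 0.0703% in Aβ0/0 mTEC, without overlap, while the WT subsets overlapped at 0.0714 to 0.0885% and 0.0734 to 0.0774%.

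Single genes were then tested with edgeR's quasi-likelihood method, with Benjamini-Hochberg adjustment over all genes tested and a threshold of 0.05. The first question was how the subsets differ within a genotype. In the Aβ0/0 mice every mitochondrial gene was higher in mTEC than in cTEC, by 1.12 to 1.55 on the log2 scale. The mitochondrial median was 1.32, that of the 82 nuclear members tested 0.02 and that of all genes tested 0.03. mt-Co1, the catalytic subunit of cytochrome c oxidase, was at 1587, 3912 and 2056 CPM in Aβ0/0 cTEC and at 6200, 6497 and 6569 in Aβ0/0 mTEC. mt-Co3, a core subunit of the same enzyme, was at 2218, 5773 and 3024 CPM against 7830, 10446 and 9695. mt-Cytb, cytochrome b of complex III, was at 1445, 3815 and 2453 CPM against 5090, 7481 and 7431. In each of these 3 genes all mTEC libraries were above all cTEC libraries, and replicate 2 was the highest in cTEC. The libraries did not overlap for 12 of the 13 mitochondrial genes, mt-Nd1 being the exception, whereas among the nuclear members 1 was above and 6 were below without overlap. Over all genes tested, 15.1% were above and 12.7% below without overlap.

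None of these members passed the threshold in the fit of the 6 libraries as independent samples, where 5.60% of all genes tested were called. All 13 mitochondrial genes and 2 nuclear members had an unadjusted p under 0.05, beside 2792 of 15687 genes tested. The adjusted p-values of the mitochondrial genes were 0.0695 to 0.208 by edgeR. The cell yields of the study list cTEC and mTEC under one replicate number, which was taken as one pool of mice although the labels give the number alone and same-numbered libraries correlated weakly for WT replicate 2 (0.0123) and Aβ0/0 replicate 3 (0.0387). With that pool as a block 12 members were called, every one a mitochondrial gene that rose in mTEC, with adjusted p-values of 0.0157 to 0.0462 by edgeR. The share of all genes called with that block was 4.02%. mt-Co1, at a log2 fold change of 1.46 and an adjusted p of 0.0592, was the mitochondrial gene that missed it. DESeq2 without the block called 14 members, 11 of them mitochondrial, and over all genes it also called more than edgeR, as given below. Leaving out Aβ0/0 cTEC replicate 2, the cTEC library with the highest mitochondrial share of that genotype, gave 7 calls, all mitochondrial. The share of all genes called in that fit is not given here.

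In the WT mice the mitochondrial genes ran the same way with a smaller median of 0.72, beside −0.09 for the 83 nuclear members tested and 0.06 for all genes tested. mt-Co1 was at 1986, 2112 and 4212 CPM in WT cTEC and 5443, 5405 and 6045 in WT mTEC, with no overlap, a log2 fold change of 1.03 (SE 0.35) and an adjusted p of 0.0666 by edgeR. mt-Atp8, a small membrane subunit of ATP synthase, was at 246, 332 and 637 CPM against 580, 809 and 868, which overlapped, at 0.89 (SE 0.38, adjusted p = 0.127, edgeR). mt-Nd6, the one protein gene on the light strand, was at 119, 90.5 and 512 CPM against 227, 226 and 266, and its log2 fold change of −0.00 (SE 0.60) turned to 0.038 under the size factors of DESeq2's median-ratio method. WT cTEC replicate 3 was above all 3 WT mTEC libraries for mt-Nd6 and above the other 2 WT cTEC libraries for each of these genes.

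The test called 3 members in the WT subsets, Atp5s, Ndufa11 and Cox7b2, where 26.8% of all genes tested were called. Cox7b2, described below, entered the test through the group in which it is high. Atp5s, a coupling factor homologue that is no subunit of ATP synthase, was at 30.7, 38.5 and 35.4 CPM in WT cTEC and at 14.1, 17.6 and 14.4 in WT mTEC, with no overlap. It fell by 1.18 on the log2 scale in mTEC (SE 0.25, adjusted p = 0.0101, edgeR). In the Aβ0/0 mice it was at 25.5, 29.7 and 55.7 CPM against 15.7, 14.2 and 16.9, again with no overlap, a log2 fold change of −1.24 and an adjusted p of 0.194. It lies at chr12:69724950-69744660 on the plus strand of GRCm38.

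Ndufa11, an accessory subunit of the membrane arm of complex I, was at 480, 421 and 1073 CPM in WT cTEC and 204, 312 and 296 in WT mTEC, and fell by 1.28 in mTEC (SE 0.40, adjusted p = 0.0473, edgeR). The deposited tables count it on a single transcript of 2661 bases that has 545 bases in the GENCODE M21 annotation, the only one of the 97 members whose counts lie mainly on a transcript of such different length, and what the additional bases hold was not tested. The gene lies at chr17:56717767-56722141 on the plus strand, and 6.41% of its annotated exon bases overlap Vmac on the opposite strand, which these libraries cannot separate. With the pool as a block its adjusted p was 0.0508, with median-ratio scaling 0.0509, and without any one WT mTEC library 0.113 to 0.149. Without WT cTEC replicate 3 it was called at −0.73 (SE 0.22, adjusted p = 0.0337, edgeR). Under that block, with 20.5% of all genes tested called, the members called were mt-Co1 (log2 fold change 1.12, adjusted p = 0.0487), mt-Atp8 (0.99, adjusted p = 0.0486) and Atp5s (adjusted p = 0.0308), all by edgeR.

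The members that did not overlap between the WT subsets were mt-Co1 and 6 nuclear members above (Atp5sl, Cox4i2, Cox6a2, Cox7a1, Cox7b2 and Ndufc2) and 2 below (Atp5s and Ndufa11), against 30.0% and 17.2% of all genes tested. These member counts are below the backgrounds. They turned on one library: without WT cTEC replicate 3, edgeR called 30 members, all 13 mitochondrial genes among them, beside 38.1% of all genes tested, and the median log2 fold change became 1.40 for the mitochondrial and 0.34 for the nuclear members. All 13 mitochondrial and 39 of 83 nuclear members were then above without overlap, beside 38.9% of all genes tested. Without WT mTEC replicate 3 no member was called and 2 had an unadjusted p under 0.05. DESeq2 on all 6 libraries called 8, and its share over all genes is not given here.

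**Figure D2:**
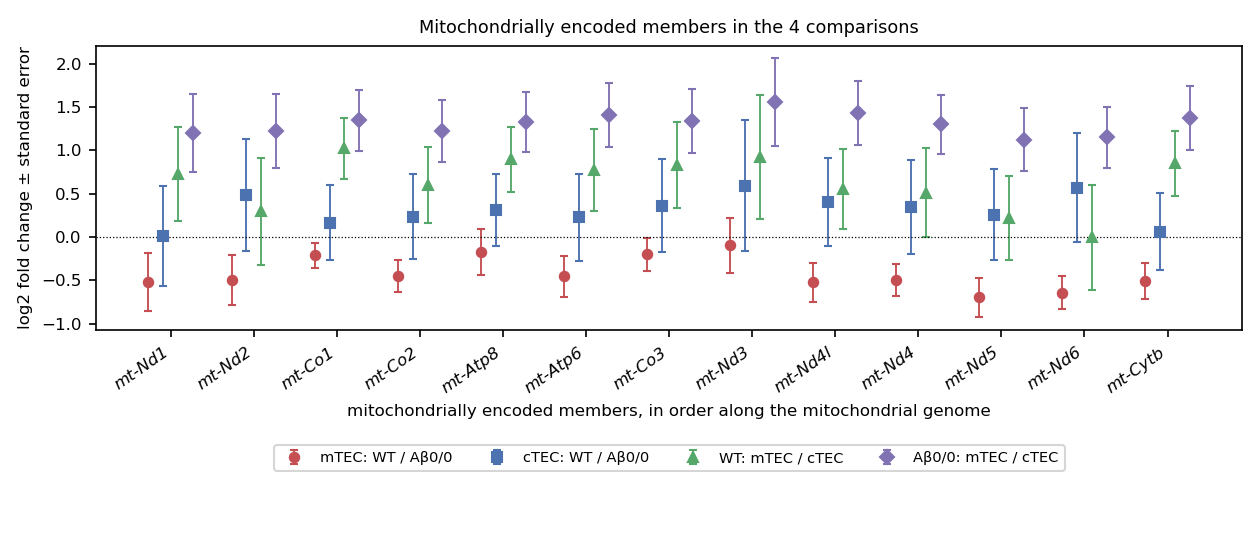
Log2 fold change with its SE (edgeR, n = 3 libraries a group) of the 13 mitochondrial genes, in their order along the mitochondrial genome, in the 4 comparisons. The mTEC against cTEC values lie at 1.12 to 1.55 in the Aβ0/0 mice and the WT against Aβ0/0 values in mTEC are all below 0.

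Among the nuclear members, WT cTEC replicate 3 differed from its group most in the short ones, while the mitochondrial genes were high there at every length. Cox6c, Uqcrb and Cox8a, short subunits of complexes IV, III and IV, were at 888, 629 and 966 CPM there. The other 2 WT cTEC libraries held 299 and 275, 191 and 211, and 364 and 331 CPM of them. Sdha, the long flavoprotein subunit of complex II, was at 144 CPM in replicate 3 and at 289 and 346 in the others, and Ndufs1, the largest subunit of complex I, at 82.0 against 111 and 111. Of the 38 nuclear members under 700 bases, 36 were above both other WT cTEC libraries in replicate 3 and none below both, with a median log2 ratio of 1.33 over the 32 with a mean of at least 10 CPM. Of the 18 of at least 1200 bases, 9 were above both and 6 below both (Sdha, Ndufs1, Ndufv1, Atp5a1, Atp5b and Atp5sl), with a median of 0.14. Ndufa11 is counted among the long members by its deposited length, although its annotated length is that of a short one. On unscaled totals the long members summed to 4812 CPM in replicate 3 and 4702 and 5074 in the other 2 libraries. Without Ndufa11 they summed to 3818 against 4165 and 4626, below both. On the TMM-scaled sizes used for single genes, the sum in replicate 3 was above both, and without Ndufa11 between them. On that scale, of the 17 members other than Ndufa11, 8 were above both and 6 below both. The 38 nuclear members under 700 bases exceeded the 18 members of at least 1200 bases by a log2 ratio of 1.41 in replicate 3, against 0.371 and 0.041 in the other 2 libraries and 0.20 to 1.25 in the remaining 9. Cytosolic ribosomal protein genes, also short, took 4.88% of its counts and 1.90 to 3.13% of all others. When the mitochondrial sum was set against the long nuclear members alone, the log2 ratio of WT cTEC replicate 3 was 2.84, within the 2.82 to 3.16 of WT mTEC, so the separation of the WT subsets then rested on the other 2 cTEC libraries at 1.46 and 1.57. Without Ndufa11 it was 3.17, within the 2.89 to 3.26 of WT mTEC.

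**Figure D3:**
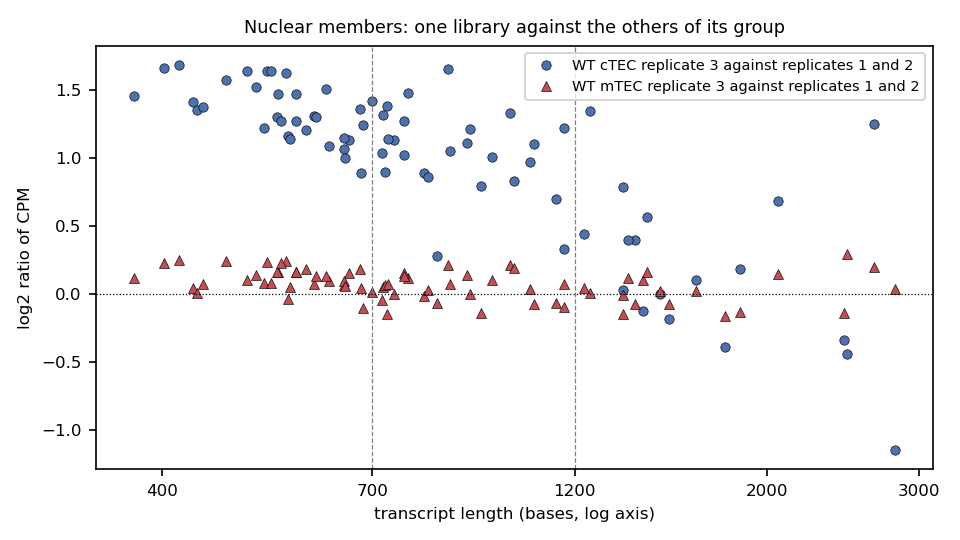
Log2 ratio of CPM in replicate 3 to the mean of replicates 1 and 2 against transcript length (log axis), for WT cTEC (blue circles) and WT mTEC (red triangles), over the 76 nuclear members with a mean of at least 10 CPM. Dashed lines mark 700 and 1200 bases; the WT cTEC points lie at 0.89 to 1.69 for the short members and on both sides of 0, at −1.14 to 1.35, for the long ones, and the WT mTEC points of these members lie at −0.16 to 0.29.

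The second question was the effect of the genotype. In mTEC every mitochondrial gene had a lower estimate in WT than in Aβ0/0 libraries. This held under TMM and median-ratio scaling and under scaling on all genes outside mitochondrial DNA. The nuclear members lay on both sides of 0. The mitochondrial log2 fold changes (WT over Aβ0/0) ran from −0.70 for mt-Nd5 to −0.09 for mt-Nd3, with a median of −0.49. With each library left out this median was −0.63 to −0.30. Among the 83 nuclear members tested, 40 were positive and 43 negative with a median of −0.01, and the median of all genes tested was 0.00. No mitochondrial gene passed the threshold by edgeR. 5 of the 13 had an unadjusted p under 0.05, beside 2859 of 18636 genes tested, and DESeq2 called 1, mt-Nd6.

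The estimates farthest from 0 were those of mt-Nd5 and mt-Nd6 of complex I. mt-Nd6 was at 227, 226 and 266 CPM in WT mTEC and 318, 454 and 337 in Aβ0/0 mTEC, with no overlap (log2 fold change −0.64, SE 0.19, adjusted p = 0.133 by edgeR and 0.0277 by DESeq2). mt-Nd5 was at 675, 794 and 1003 CPM against 1040, 1638 and 1285, also with no overlap (−0.70, SE 0.23, adjusted p = 0.184, edgeR). mt-Nd4 was at 1662, 1964 and 2017 CPM against 2141, 3128 and 2620 (−0.50, SE 0.18, adjusted p = 0.247, edgeR). These 3 encode proton-pumping and membrane-arm subunits of complex I, and Aβ0/0 mTEC replicate 2 was the highest library in each. mt-Nd5 and mt-Nd6 share 14 bases on opposite strands, as shown above, so their values are not fully separate measurements. As the libraries keep no strand, any RNA from the strand opposite to mt-Nd6 would also count as mt-Nd6 along its whole length. Its part in these values was not tested. mt-Cytb (−0.51, SE 0.21, adjusted p = 0.307) and mt-Co2, the copper-binding subunit of cytochrome c oxidase (−0.45, SE 0.18, adjusted p = 0.311, both edgeR), overlapped between the genotypes. mt-Co1 did not overlap, at 5443, 5405 and 6045 CPM against 6200, 6497 and 6569, with a log2 fold change of −0.21. These 4 mitochondrial genes, mt-Nd4, mt-Nd5, mt-Nd6 and mt-Co1, were below without overlap and none above, beside 7.69% and 18.7% of all genes tested.

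As a percentage of the mitochondrial TPM of a library, mt-Co3 took 18.1 to 22.7, mt-Atp6 19.0 to 22.3 and mt-Nd5 0.795 to 1.34 over the 12 libraries. mt-Nd3 took 1.19 to 2.99, mt-Nd2 1.46 to 2.83 and mt-Nd6 0.993 to 2.21, the last with group means of 1.63 in WT cTEC and 1.10 in WT mTEC. mt-Nd5 took 0.859% ± 0.0584 in WT mTEC and 1.10% ± 0.0882 in Aβ0/0 mTEC, and mt-Co3 22.3% ± 0.388 and 20.1% ± 1.26 (SD, n = 3).

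None of the nuclear subunits at the centre of the complexes was called in mTEC by edgeR, and DESeq2 called Uqcrfs1. The log2 fold change (WT over Aβ0/0) was −0.13 for Ndufs1, which carries iron-sulphur clusters of complex I, and 0.12 for Ndufv1, which holds its NADH site. It was 0.22 for Sdha and 0.00 for the iron-sulphur subunit Sdhb of complex II. In complex III it was 0.12 for the core subunit Uqcrc1 and 0.37 (SE 0.16) for the Rieske protein Uqcrfs1. Uqcrfs1 was at 135, 160 and 147 CPM in WT mTEC and 111, 110 and 116 in Aβ0/0 mTEC, without overlap, with an adjusted p of 0.341 by edgeR and 0.0451 by DESeq2. In complex IV it was 0.18 for Cox4i1, −0.09 for Cox5a and −0.01 for Cox5b, the early-assembling nuclear subunits. The F1 subunits of ATP synthase had 0.24 (SE 0.15, adjusted p = 0.536, edgeR) for Atp5a1 and 0.15 for Atp5b. Atp5a1 was at 749, 821 and 714 CPM in WT mTEC and at 614, 658 and 635 in Aβ0/0 mTEC, with no overlap. On unscaled totals the 18 nuclear members of at least 1200 bases summed to 4697, 5275 and 4784 CPM in WT mTEC. In Aβ0/0 mTEC they summed to 4079, 4117 and 4350, without overlap with or without Ndufa11. On the TMM-scaled sizes used for single genes these sums overlapped, with or without Ndufa11. By complex the nuclear medians were −0.09, 0.11, 0.09, 0.04 and −0.01 for complexes I to V, and the mitochondrial medians −0.52 for complex I, −0.51 for III, −0.21 for IV and −0.31 for V.

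In cTEC the genotypes were not separated. Of 95 members tested by edgeR none was called and none had an unadjusted p under 0.05, beside 0.0194% of all genes tested called, and DESeq2 called none and gave 1 an unadjusted p under 0.05. The median log2 fold change was 0.31 for the mitochondrial and 0.16 for the nuclear members, beside 0.06 for all genes tested and 0.42 for the cytosolic ribosomal protein genes, and without WT cTEC replicate 3 the first 2 medians were −0.50 and −0.32. Only Ndufa4l2 was above and Ndufs1 below without overlap, beside 4.35% and 3.50% of all genes tested. Ndufs1 was at 111, 111 and 82.0 CPM in WT cTEC and 121, 119 and 169 in Aβ0/0 cTEC (−0.40, SE 0.27). The highest estimates were 3.62 for Ndufa4l2 and 1.28 for Cox6a2, and the lowest −0.76 for Cox4i2 and −0.40 for Ndufs1, with an adjusted p of 1.00 by edgeR for each. The genotype effect in mTEC minus that in cTEC was negative for all 13 mitochondrial genes, from −1.16 for mt-Nd6 to −0.33 for mt-Co1, with a median of −0.64 beside −0.13 for the nuclear members. Without WT cTEC replicate 3 these medians turned to 0.078 and 0.32, and 10 of the 13 mitochondrial genes were positive. None of 96 members was called by edgeR in that test, none had an unadjusted p under 0.05, DESeq2 called none and gave 4 an unadjusted p under 0.05, and 0.0103% of all genes tested were called by edgeR. The mitochondrial genes are therefore not shown to respond differently in the 2 subsets.

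Between the Aβ0/0 subsets the nuclear median farthest from 0 was that of complex II, at −0.31 over 4 genes, beside 0.29 for complex IV. Sdha, at chr13:74322254-74350280 on the minus strand, was at 319, 343 and 381 CPM in Aβ0/0 cTEC and 249, 176 and 197 in Aβ0/0 mTEC, with no overlap (−0.74, SE 0.23, adjusted p = 0.127 by edgeR and 0.0150 by DESeq2). Sdhb was at 160, 275 and 252 CPM against 177, 157 and 213, which overlapped (−0.33, SE 0.27). Sdha, Ndufs1, Atp5a1 and Atp5s, all of at least 1200 bases, were among the 6 nuclear members below without overlap in Aβ0/0 mTEC. The others were Cox4i2 and Cox8b, so the lower values were not confined to complex II. All nuclear members of at least 1200 bases summed to 4570 to 5762 CPM in Aβ0/0 cTEC and 4079 to 4350 in Aβ0/0 mTEC. That was on unscaled totals, and on TMM-scaled sizes the sums overlapped. In the WT subsets the complex II median was −0.08.

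Some subunits of complex IV exist as a broad and a tissue-restricted isoform, encoded by separate genes. The restricted isoforms were all rare. Between the mTEC genotypes edgeR called none of the 7 tested but Cox7b2, which entered the test through the group in which it is high, and 2 had an unadjusted p under 0.05, Cox7b2 and Cox8b. Their share of the TPM of an isoform pair reached at most 0.766% for Cox4i2, 0.983% for Cox6a2, 0.791% for Cox7b2, 1.53% for Ndufa4l2, 2.13% for Cox7a1, 2.78% for Cox8b and 5.19% for Cox6b2. Cox8c, known from testis, reached 4 counts in one library and was too low to test. Of the other 7, 5 were above in WT mTEC without overlap (Cox4i2, Cox6a2, Cox7b2, Cox8b and Ndufa4l2), and none of their broad counterparts was. With Atp5a1, Atp5sl, Ndufa9 and Uqcrfs1 these made 9 nuclear members above without overlap and none below, beside the 18.7% above and 7.69% below given for all genes.

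Cox7b2, a testis isoform of Cox7b, was the one member called in mTEC, where 5.66% of all genes tested were called. It had 25, 12 and 12 counts in the WT mTEC libraries and 0 in the other 9 libraries, so that it passed the filter on low counts through the group in which it is high and its calls are given as a description, or 0.601 CPM ± 0.402 (SD, n = 3) in WT mTEC. Set against a floor of 3 counts per library it was at least 5.38-fold higher than in Aβ0/0 mTEC and at least 5.39-fold higher than in WT cTEC, and no support is drawn from its p-values. The first call was lost when any one of the 6 mTEC libraries was left out, without WT mTEC replicate 3 because the gene then failed the filter. It was also lost with no filter, with the replicate block, in the fit of all 12 libraries and under the stricter filter of 10 mean counts, which removes it from the test. The second was lost with the pool as a block. The gene lies at chr5:71442824-71548205 on the minus strand.

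Cox8b, the isoform of heart and skeletal muscle, was at 6.39, 8.97 and 5.93 CPM in WT mTEC and 0.923, 2.53 and 1.85 in Aβ0/0 mTEC, with no overlap (log2 fold change 1.99, SE 0.78, adjusted p = 0.28 by edgeR and 0.00233 by DESeq2). It was at 2.14 to 6.87 CPM in cTEC, where the genotypes overlapped. Its broad counterpart Cox8a was at 405, 551 and 536 CPM against 371, 625 and 412, which overlapped. Cox8b thus made up 1.90 to 2.78% of the pair in WT mTEC and 0.434 to 0.775% in Aβ0/0 mTEC.

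Cox4i2, an isoform known from lung, was at 3.20, 3.44 and 3.04 CPM in WT mTEC and 0.731, 0 and 0 in Aβ0/0 mTEC, the latter from 19, 0 and 0 counts (3.66, SE 1.85, adjusted p = 0.433, edgeR). Its cTEC values of 1.19, 1.34 and 1.12 in WT and 1.29, 3.42 and 1.60 in Aβ0/0 lay between those of the mTEC genotypes but for one library. Cox6a2, the heart and muscle isoform of Cox6a, was at 4.18, 5.68 and 4.11 CPM in WT mTEC, 1.42, 3.49 and 1.24 in Aβ0/0 mTEC and 0 to 1.16 in cTEC (1.17, SE 0.82, adjusted p = 0.617 between the mTEC genotypes, edgeR). Cox7a1, the heart and muscle isoform of Cox7a, was at 2.39, 2.60 and 2.07 CPM against 0.962, 3.81 and 0, which overlapped. Cox6b2, known from testis, was at 4.12 to 12.7 CPM over all 12 libraries, with overlap in every comparison. Ndufa4l2, a paralogue of the complex IV subunit Ndufa4, was at 2.22, 2.63 and 2.26 CPM in WT mTEC and 1.77, 1.82 and 0.0377 in Aβ0/0 mTEC. In cTEC it was at 1.11, 7.93 and 4.83 in WT and at 1.09, 0 and 0.0275 in Aβ0/0 (3.62, SE 1.86). Between the Aβ0/0 subsets the highest estimates of all members (mTEC over cTEC) were 2.83 for Cox6a2 and 1.68 for Ndufa4l2, and the lowest −3.07 for Cox4i2 and −1.37 for Cox8b. None of these differences passed the threshold by edgeR.

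Other measurements were compared with these isoforms. Aire, the regulator that turns on tissue-restricted genes in mTEC, was at 1002, 526 and 443 CPM in WT mTEC and 180, 121 and 129 in Aβ0/0 mTEC. The 8 skeletal and cardiac muscle markers summed to 278 to 426 CPM in WT and 203 to 458 in Aβ0/0 mTEC, with overlap, and to 10.6 to 35.2 in cTEC. The 6 granulocyte genes summed to 514 to 664 CPM in WT and 76.2 to 311 in Aβ0/0 mTEC. Ngp among them was at 0 in all 3 Aβ0/0 mTEC libraries and at 12.3, 20.2 and 10.2 CPM in WT. Elane reached only 0.256 CPM in WT mTEC. Ltf overlapped, at 86.3, 233 and 75.0 CPM in WT and 244, 133 and 21.4 in Aβ0/0 mTEC. The 9 macrophage, dendritic and B cell genes, mostly Lyz2, summed to 639 to 672 CPM in WT and 108 to 672 in Aβ0/0 mTEC, and Adgre1 (22.3, 11.3 and 21.6 CPM in WT) and Itgax (0.469, 1.54 and 0.627) were at 0 in all 3 Aβ0/0 libraries. Their part in the values of the isoforms was not tested.

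**Figure D4:**
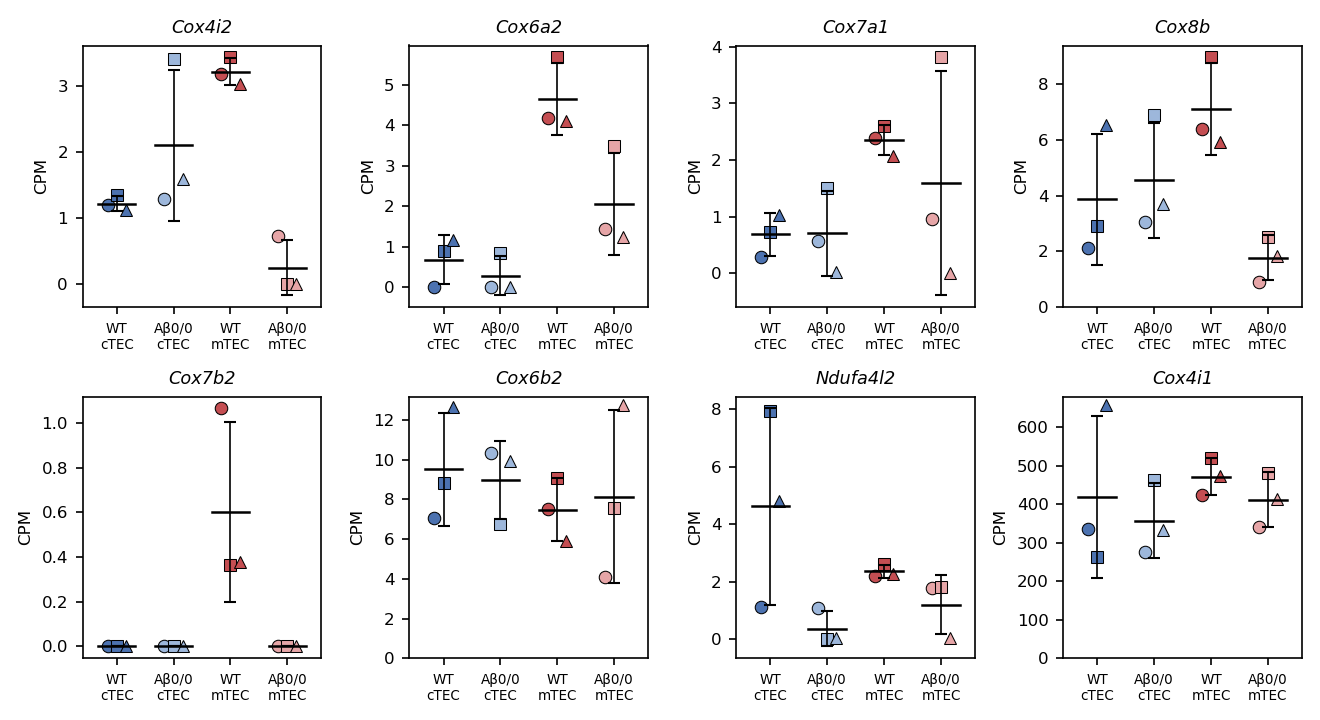
CPM per library of the 7 tested restricted isoforms and of the broad isoform Cox4i1, by group. Cox7b2 is above 0 in WT mTEC alone, Cox4i2, Cox6a2, Cox8b and Ndufa4l2 are higher in all 3 WT than in all 3 Aβ0/0 mTEC libraries, and Cox4i1 overlaps at 340 to 519 CPM.

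The start regions of Cox7b2 and Cox8b are shown because these isoforms were described above, that of Cox8a as the broad counterpart of Cox8b, and that of Cox6a1 as an example that holds the NRF1 core. Each is 250 bases before to 50 after the start, read 5′ to 3′ on the strand of the gene, from RefSeq (GRCm38.p6), with matches to the motifs below in capitals.
Cox7b2, chr5:71548156-71548455, minus strand: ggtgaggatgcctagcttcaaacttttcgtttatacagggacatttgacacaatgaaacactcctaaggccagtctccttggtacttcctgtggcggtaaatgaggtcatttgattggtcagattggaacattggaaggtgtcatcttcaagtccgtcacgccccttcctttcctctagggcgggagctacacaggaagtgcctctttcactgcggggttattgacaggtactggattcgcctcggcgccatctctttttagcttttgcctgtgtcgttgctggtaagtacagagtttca
Cox8b, chr7:140900397-140900696, minus strand: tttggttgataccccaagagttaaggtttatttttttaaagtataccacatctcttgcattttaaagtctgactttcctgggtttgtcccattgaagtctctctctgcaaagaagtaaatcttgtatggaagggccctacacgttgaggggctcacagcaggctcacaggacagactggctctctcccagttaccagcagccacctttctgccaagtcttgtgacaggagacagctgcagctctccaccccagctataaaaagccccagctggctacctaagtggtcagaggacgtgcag
Cox8a, chr19:7217567-7217866, minus strand: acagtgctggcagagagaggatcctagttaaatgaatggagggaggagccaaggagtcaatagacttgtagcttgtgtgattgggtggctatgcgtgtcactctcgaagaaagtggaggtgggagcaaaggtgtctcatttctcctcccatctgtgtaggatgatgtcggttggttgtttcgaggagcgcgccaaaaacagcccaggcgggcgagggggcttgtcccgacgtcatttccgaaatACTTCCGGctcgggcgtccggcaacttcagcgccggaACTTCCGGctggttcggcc
Cox6a1, chr5:115348909-115349208, minus strand: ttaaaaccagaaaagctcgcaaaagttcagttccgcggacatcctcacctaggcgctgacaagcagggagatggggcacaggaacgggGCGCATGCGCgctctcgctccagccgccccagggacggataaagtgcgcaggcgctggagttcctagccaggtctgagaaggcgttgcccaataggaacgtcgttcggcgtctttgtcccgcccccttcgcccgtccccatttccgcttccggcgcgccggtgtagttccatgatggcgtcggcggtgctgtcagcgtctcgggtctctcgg
The letters searched on both strands were GCGCATGC, the core of the motif of NRF1, a factor known to control nuclear respiratory genes, and CCGGAAGT, bound by ETS factors such as GABP. The NRF1 core overlaps its own reverse complement, which gives 1 run of 10 capitals in Cox6a1. Cox8a held the ETS letters on the opposite strand 6 bases before and 32 after the start, and Cox7b2 and Cox8b held neither motif. Of the 84 nuclear members 66 had a start region in the table. The NRF1 core was in 10 of them (15.2%; 3.05% of all 27025 genes), the ETS letters in 5 (7.58%; 4.31%) and either in 14 (21.2%; 7.06%). None of the 4 restricted isoforms in the table held either. Ndufa11, Ndufa6, Ndufa8, Sdhb, Uqcrc1, Uqcr11, Atp5g2, Atp5k and Atp5l were the other holders of the NRF1 core, and Atp5h, Ndufs3, Uqcrh and Uqcr11 of the ETS letters. A match is a description of the letters in this window and shows no binding.

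The c subunit of ATP synthase, which forms the rotating ring, comes from 3 nuclear genes with the same mature protein. By TPM, Atp5g3 made up 55.1 to 60.9%, Atp5g1 32.9 to 38.9% and Atp5g2 4.76 to 8.75% of the 3 over all 12 libraries. The order was the same in every library. The value of Atp5g2 is uncertain, because the pseudogene Gm10175 on chromosome 7 matches 88.2% of its transcript with 100% identity and took 49526 counts over the 12 libraries, against 16669 for Atp5g2. For the other members with near-identical copies, no single copy took more than 0.716% as many counts. Ndufb6, Ndufa13 and Uqcrc2 overlap a gene on the opposite strand over 39.0%, 30.0% and 19.7% of their exon bases, and reads there cannot be told apart.

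Genes that build and control the chain were taken as lists for comparison. Of 50 tested genes for cytochrome c, cytochrome c1 and assembly factors, 1 was called between the mTEC genotypes. This was Sdhaf1, which helps insert the iron-sulphur clusters of complex II, at 76.6, 78.8 and 72.3 CPM in WT mTEC and 41.7, 28.3 and 36.1 in Aβ0/0 mTEC (1.08, SE 0.23, adjusted p = 0.0418, edgeR), and the median of the list was −0.06. Of 18 transcriptional regulators of nuclear respiratory genes, 1 was called, the deacetylase Sirt1, at 159, 136 and 116 CPM against 37.6, 40.0 and 26.3 (1.96, SE 0.24, adjusted p = 0.0352, edgeR), with a list median of −0.04. Both were higher in every WT library. With the replicate number as a block, their adjusted p-values were 0.230 and 0.102 by edgeR, and neither was called. Leaving out single libraries kept each call in 1 of 6 fits, and both were called by DESeq2. Sdhaf1 also lost its call with no filter (adjusted p = 0.0738) and in the fit of all 12 libraries (0.134, both edgeR). Under the stricter filter of 10 mean counts both calls were lost, each at an adjusted p of 0.0584 by edgeR. None was called among 28 genes of mitochondrial DNA and RNA maintenance (median −0.18), 18 of the tricarboxylic acid cycle (0.02), 19 of glycolysis (0.09), 78 mitochondrial ribosomal proteins (−0.07) and 93 cytosolic ribosomal proteins (−0.15), against the 5.66% of all genes given above. In cTEC no gene of these lists was called between the genotypes.

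Between the WT subsets 5 of the 50 assembly genes were called, 2 higher in mTEC and 3 lower. Sdhaf1 rose by 1.99 in mTEC (adjusted p = 0.000859) and Acad9, a complex I assembly factor, by 0.99 (adjusted p = 0.0102), and Atpaf1, which assembles the F1 part of ATP synthase, fell by 1.04 (adjusted p = 0.0328, all edgeR). Of the regulators 2 rose, Sirt1 by 2.15 and Esrrg by 6.43, and 2 fell, Hif1a, the hypoxia-inducible factor, by 1.84 among them. Esrrg was at 0.329, 0.0305 and 0.0399 CPM in WT cTEC and 13.2, 11.0 and 10.2 in WT mTEC. It passed the filter through the group in which it is high, so its call is a description. Of the maintenance genes Hsd17b10 and Mterf4 fell, by 1.18 and 1.09, and of the glycolysis genes Eno2 and the lactate exporter Slc16a3 rose, by 4.47 and 2.95. Of the tricarboxylic acid cycle genes Suclg2 fell by 0.82, a call lost with the pool as a block (adjusted p = 0.0573, edgeR). Leaving out single libraries kept the calls of Sdhaf1, Sirt1, Hif1a, Mrpl38 and Mrpl3 in 6 of 6 fits, of Acad9 in 5, of Hsd17b10 and Mterf4 in 4, of Atpaf1 in 3, of Eno2, Slc16a3 and Mrps27 in 2 and of Suclg2 in 1. In the fit of all 12 libraries the calls of Eno2, Slc16a3, Mrps27, Mterf4 and Suclg2 were lost, at adjusted p-values of 0.130, 0.330, 0.106, 0.0570 and 0.0816 by edgeR, and with no filter that of Eno2 (0.0522). Of 78 mitochondrial ribosomal proteins 2 rose and 2 fell, with Mrpl38 at 1.46 and Mrpl3 and Mrps27 at −1.08 and −0.94. These counts stand beside 26.8% of all genes tested. Between the Aβ0/0 subsets the called genes of the lists were Hif1a (−1.19, adjusted p = 0.0456) and Myc (−1.58, adjusted p = 0.0496, both edgeR), which fell in mTEC. With the pool as a block the adjusted p was 0.0247 for Hif1a and 0.0627 for Myc, so that the second call was lost. Each call was kept in 1 of 6 fits that left out a library, and neither under the stricter filter of 10 mean counts (adjusted p = 0.0572 and 0.0613, edgeR).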

How the data were processed

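Poly(A) RNA of 12 sorted TEC samples was sequenced as paired reads. Per the labels and methods, the authors called bases with bcl2fastq 2.20.0, trimmed reads with Trim Galore and quantified transcripts with kallisto 0.43, naming the mm10 genome, and deposited expected counts and TPM per transcript for each library. The authors also deposited 1 table of normalised log2 values (the rlog transform of DESeq2), used here for the symbols alone. The transcript annotation they indexed was not given in the sources used here.

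Here the estimated counts were summed to 34547 genes through GENCODE M21 (GRCm38), to which 107987 of 109282 transcript IDs matched, and the 1295 unmatched ones held 0.45 to 0.512% of the counts. All 97 members were found, Atp5sl through an older symbol. Sums were rounded to whole numbers and tested with edgeR 4.0.16 (R 4.3.3; filterByExpr, TMM, robust quasi-likelihood F-test, Benjamini-Hochberg over all genes tested, adjusted p threshold 0.05), on the 6 libraries of each comparison, or all 12 for the difference between the genotype effects. DESeq2 1.42.0 was one alternative. CPM of single genes are per 1000000 of the TMM-scaled library size over all 12 libraries, and overlap between groups was read from them. Shares, marker sums and sums of the long or short members use unscaled totals. TPM were summed as deposited. The members and lists were chosen with earlier results of these data known. Genes named were the 13 mitochondrial genes, isoform pairs, central subunits, called members, the 2 highest and 2 lowest of each comparison, members with near-identical copies, and at most 3 called genes of each list. Ndufa9, Ndufc2, Ndufa11's transcript and the short genes of WT cTEC replicate 3 were singled out after their values were seen.

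Depth was 21710319 to 36139815 counts per library. Intervals and floors cover counting error only, and PCR copies are not removed. On simulated counts with 200 changed genes, edgeR recovered 197 in the mTEC genotype comparison, with 8 false calls among 18636 genes. It recovered 200 in cTEC among 15432 genes, 198 in the WT subsets among 18667 and 195 in the Aβ0/0 subsets among 15687. The median log2 fold change of the changed genes was 2.97 to 3.00 in these comparisons. Recovery of smaller differences, such as those of the mitochondrial genes, was not tested. Same-numbered cTEC and mTEC of a genotype were treated as one pool, as the cell yields of the study list both subsets for each replicate, and the correlations of their deviations from the group means over 18442 genes were 0.282, 0.0123 and 0.134 in WT and 0.287, 0.135 and 0.0387 in Aβ0/0. The blocked values are therefore given in the report where they change a call, and likewise between the genotypes, whose same-numbered libraries may share a sorting. No pair of replicates agreed within sampling noise. Near-identical transcripts were found by BLAST at 95% identity over 50% of a transcript. Not analysed here were the protein sequences of the members, and 1 central subunit is not reported here.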

Additional observations from a re-analysis of the deposited data

Results flagged for a closer look

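Cox4i2, the restricted isoform of the Cox4 subunit of cytochrome c oxidase, was singled out because the subsets stood in opposite order in the genotypes. In WT mice all 3 mTEC libraries were above all 3 cTEC libraries (log2 fold change 1.41, SE 0.64, adjusted p = 0.153, edgeR). In Aβ0/0 mice all 3 mTEC libraries were below all 3 cTEC libraries (−3.07, SE 1.89, adjusted p = 0.479, edgeR). The test of the difference itself gave 4.49 (SE 2.13) with an adjusted p of 0.733 by edgeR, so the difference did not pass the threshold. The Aβ0/0 mTEC value rests on 19 counts in 1 library and 0 in the other two.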

How the results depend on the processing

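Between the mTEC genotypes the number of members called was 1 as reported. It was 0 with no filter, with a mean of at least 10 counts, with a replicate block and in a fit of all 12 libraries, and 4 with DESeq2 (Cox7b2, Cox8b, Uqcrfs1 and mt-Nd6). Over all genes it was 1054, and 27, 11, 0, 20 and 2440 in these settings, so the count of calls in this comparison is unstable. With each library left out, 0 to 1 members were called, the 1 being Cox4i2 without Aβ0/0 replicate 1. Its remaining Aβ0/0 mTEC libraries hold 0 counts, so that it passed the filter through WT mTEC, where it is high. No support is drawn from that call. In cTEC all genes gave 3 calls and 121 with DESeq2, and for the difference between the genotype effects 2 and 398. Between the WT subsets DESeq2 called 8 members, and leaving out each library gave 0 to 30. Between the Aβ0/0 subsets DESeq2 called 14, the replicate block 12 and a fit of all 12 libraries 3, with 0 to 7 when each library was left out. Over all genes the WT subsets gave 4997 calls and 2760 in the fit of all 12 libraries, and the Aβ0/0 subsets 878, with 1819 in that fit and 2760 with DESeq2. The labels give the genotypes of a subset the same replicate numbers, and the cell yields list both under one replicate, so a shared sorting cannot be told apart from a shared number (correlations of same-numbered libraries 0.298, −0.105 and 0.0189 in cTEC and 0.322, 0.138 and 0.0699 in mTEC), and with the replicate block edgeR called no gene in mTEC or in cTEC, with 2929 and 259 at an unadjusted p under 0.05. The causes of these shifts were not tested.

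Of single genes, mt-Nd6 between the WT subsets turned from −0.00 to 0.038 with median-ratio scaling, 0.037 with DESeq2, 0.010 with no filter and 0.46 with the replicate block, and ranged from −0.39 to 1.19 with each library left out. In the same way mt-Nd2 ranged from −0.072 to 1.46 and mt-Nd5 from −0.080 to 1.02 between the WT subsets, and mt-Nd3 from −0.32 to 0.13 and Cox7a1 from −0.027 to 2.23 between the mTEC genotypes. In settings that kept every library, 439 values of single genes, mitochondrial call counts and class medians together stayed the same. For a gene this means its direction and side of the threshold. Among single genes 36 passed the threshold, 7 lost it and 4, all of mt-Nd6, changed sign. Of the call counts and medians 6 moved.

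Sums of TPM gave a mitochondrial share of 3.99% in WT cTEC, 3.69% in Aβ0/0 cTEC, 7.01% in WT mTEC and 8.20% in Aβ0/0 mTEC, and a nuclear share of 4.06, 3.90, 3.85 and 3.64%. The log2 ratio of mitochondrial to nuclear counts, 1.06 in WT and 1.43 in Aβ0/0 mTEC, became 0.86 and 1.18 on TPM and 0.81 and 1.22 without mt-Co3 and Atp5b, the most abundant of each set. Against the nuclear members of at least 1200 bases alone, a choice made after the length pattern was seen, it was 1.96 in WT cTEC, 1.75 in Aβ0/0 cTEC, 2.94 in WT mTEC and 3.43 in Aβ0/0 mTEC. The order of subsets and of genotypes in mTEC was the same in each. Depth limits Cox7b2, Cox8c and the other restricted isoforms, which have few counts in a library.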

Other observations

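mt-Atp6, which forms the proton channel of ATP synthase with the c ring, was at 1972, 2463 and 6490 CPM in WT cTEC, 1838, 4530 and 3141 in Aβ0/0 cTEC, 4814, 6746 and 7123 in WT mTEC and 6170, 10212 and 8950 in Aβ0/0 mTEC. In the Aβ0/0 mice its libraries did not overlap between the subsets, and in WT mice replicate 3 of cTEC lay within the mTEC range.

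Among the accessory subunits of complex I, Ndufc2 was at 112, 92.6 and 243 CPM in WT cTEC and 254, 322 and 269 in WT mTEC (log2 fold change 0.92, SE 0.37, adjusted p = 0.113, edgeR), without overlap, and at 111, 223 and 162 against 115, 322 and 157 in the Aβ0/0 subsets, with overlap. Ndufa9 was at 116, 143 and 141 CPM in WT mTEC and 91.5, 96.9 and 106 in Aβ0/0 mTEC (0.42, SE 0.17, adjusted p = 0.305, edgeR), without overlap. Both were named after their values were seen. Atp5sl was at 33.6, 35.5 and 37.1 CPM in WT mTEC, 29.3, 28.4 and 20.3 in Aβ0/0 mTEC, 24.0, 22.6 and 21.4 in WT cTEC and 32.0, 36.5 and 22.1 in Aβ0/0 cTEC, so that WT mTEC stood above both other groups it was compared with.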
